A study of Mus musculus with 2 samples.

Results

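Fibroblasts and leptomeningeal cells of the mouse hippocampus were chosen by measured counts, as nuclei with at least 4 UMIs (unique molecular identifiers, each standing for 1 captured RNA molecule) summed over Bnc2, Slc6a13, Ranbp3l, Col1a2 and Slc6a20a. Nuclei with more than 1 UMI of the neuronal gene Rbfox3, of the myelin genes Mog and Mag together, or of the microglial gene Inpp5d were left out. The rule found 530 nuclei among 39861: 268 of 20265 in the AAV-STOP library and 262 of 19596 in the AAV-TAU library. All nuclei came from hippocampi of C57BL/6J mice aged 6 weeks that had received an adeno-associated virus (AAV) into the brain ventricles on both sides at postnatal day 0. The AAV-TAU vector expresses the unmutated 2N4R isoform of human tau at full length. The AAV-STOP vector, the control, holds the human MAPT sequence interrupted early by a stop codon, so the controls received a virus and a MAPT transcript too. A further form of the vector named in the series text was not analysed here. The tissue of 3 mice was pooled into 1 library per group. No test of a difference between conditions was therefore possible, and the intervals given cover counting error only, not the spread between mice or preparations. The comparison asks which nuclei of this kind, and which of their genes, stood at another level in the library with tau.

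Fibroblasts of the brain coverings lie in the pia, on the brain surface and around vessels that enter it, in the arachnoid and in the outer dura. They lay down collagen, laminin and proteoglycans, supply retinoic acid and insulin-like growth factors, and carry many membrane transporters. The outermost cells of the arachnoid form a barrier layer, joined by E-cadherin and tight junctions and equipped with efflux pumps, between the cerebrospinal fluid and the dura. Of the genes in the rule, Bnc2 codes for a zinc finger protein of mesenchymal cells, Slc6a13 for a GABA and taurine transporter, Slc6a20a for a proline transporter, Col1a2 for a chain of type I collagen and Ranbp3l for a Ran-binding protein.

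The depth was 130252240 UMIs for the AAV-STOP library and 109428807 UMIs for the AAV-TAU library, with medians of 5750 and 5119 UMIs per nucleus. Member nuclei were shallower, with medians of 2834 and 2641 UMIs, and their summed counts were 881066 and 815478 UMIs. The shallowest member of AAV-STOP had 1980 UMIs and that of AAV-TAU 1635 UMIs, so 2 and 45 members held fewer than 2000 UMIs. The median mitochondrial share of members was 0.369% and 0.344%. The libraries shared 116 barcode sequences, none of them among members.

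Members made up 1.32% of the AAV-STOP nuclei (exact 95% binomial interval 1.17 to 1.49) and 1.34% of the AAV-TAU nuclei (1.18 to 1.51). The share was thus of the same size in both libraries, with a ratio of 1.01 whose counting interval ran from 0.849 to 1.20. Among nuclei with 2000 or more UMIs the shares were 1.32% and 1.21%.

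The members were selected on the UMIs of these 5 genes and the 4 excluding genes, so those values are a description. The 5 genes summed to a median of 12 UMIs per member in AAV-STOP and 11 in AAV-TAU. Just inside the threshold, at a sum of 4, lay 18 and 19 nuclei, in which 20 other fibroblast genes together reached 3464 and 2609 CPM, that is, UMIs per 1000000 UMIs summed over the same nuclei. Just outside, at a sum of 3, lay 36 and 19 nuclei, with 3447 and 2545 CPM of the same genes. The limits on neuronal, myelin and microglial genes removed 125 of 393 AAV-STOP nuclei and 91 of 353 AAV-TAU nuclei that had passed the sum.

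The 5 genes of the rule did not occur together in most members. Bnc2 stood at 1700 CPM in AAV-STOP and 1044 CPM in AAV-TAU, and Slc6a20a at 1214 and 1573 CPM. In AAV-STOP, 108 members (40.3%) held Bnc2 without Slc6a20a, 111 (41.4%) held Slc6a20a without Bnc2 and 40 (14.9%) held both. In AAV-TAU the same groups held 58 (22.1%), 162 (61.8%) and 35 (13.4%). By these counts most members held either Bnc2 or Slc6a20a but not both, in another proportion in each library. Both genes are part of the sum that chose the members, and a nucleus can reach it on either gene alone. The split is therefore a description of the rule's own values over all members, and it cannot by itself show separate kinds of nuclei. Ranbp3l stood at 1052 and 1177 CPM, Slc6a13 at 270.1 and 351.9 CPM, and Col1a2 at 313.3 and 241.6 CPM.

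Members were also described by a list of 20 further fibroblast genes, chosen, like the rule, with earlier results of these data known. Among them were the collagen genes Col1a1 and Col3a1, the proteoglycan genes Dcn and Lum, and Igf2. The highest levels of the list were those of Cped1 (1632 CPM in AAV-STOP and 1340 CPM in AAV-TAU) and Slc7a11 (1096 and 1692 CPM). Col1a1 stood at 107.8 and 137.3 CPM. All 20 were detected in both libraries and together stood at 7015 CPM in AAV-STOP members and 7446 CPM in AAV-TAU members, against 241 and 253 CPM in all other nuclei. After each nucleus was thinned to 1600 UMIs, 95.9% and 90.8% of members held at least 2 UMIs of the list. In neurons (nuclei with 2 or more Rbfox3 UMIs, median depths of 6922 and 6576 UMIs) the same share was 6.3% and 6.8%. Whether those UMIs come from free RNA in the droplets or from the neurons themselves was not tested.

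RNA of other cells was also present in members. The 8 neuron markers together stood at 3890 CPM in AAV-STOP members and 4103 CPM in AAV-TAU members, against 12483 and 11756 CPM in all other nuclei. All 8 endothelial markers were detected, and together they stood at 301.9 and 672 CPM. The 9 mural markers (of pericytes and smooth muscle) stood at 666.2 and 722.3 CPM, with Kcnj8 at 0 in AAV-STOP. The 8 choroid plexus markers, all detected, stood at 1390 and 1733 CPM, and the 5 border macrophage markers at 35.2 and 92.0 CPM, with Cd163 at 0 in AAV-STOP. The 8 astrocyte markers, all detected, stood at 2072 and 2267 CPM, against 1100 and 1156 CPM in all other nuclei. Ependymal markers were low, at 12.5 and 27.0 CPM, against 6.40 and 9.84 CPM in all other nuclei. Dnah12 and Ccdc153 were at 0 in both libraries.

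Joint clustering of the 530 nuclei gave 11 clusters. A cluster is built from all genes of its nuclei, so the genes that lead it and its size are a description. Cluster 1, with 141 nuclei, is called the Adamtsl3 cluster after its leading gene. Clusters 2, 3, 5 and 7 were led by genes of the fibroblast kind, held 255 nuclei in all, and are called the fibroblast clusters. Cluster 8, with 22 nuclei, is called the Trpm3 cluster. The other 5 clusters, with 112 nuclei, were led by genes of other cell types. Their raised markers were neuronal in cluster 4 (53 nuclei), endothelial and mural in cluster 6 (27) and choroid plexus in cluster 9 (12). They were choroid plexus and astrocyte markers in cluster 10 (12), and macrophage and microglial ones in cluster 11 (8). Summed over the 5 clusters, the list of 20 fibroblast genes stood at 3315 CPM in AAV-STOP and 2556 CPM in AAV-TAU. With both libraries summed, the list ranged from 611.2 CPM in cluster 9 to 7759 CPM in cluster 11. These 5 clusters held 58 AAV-STOP members (21.6%) and 54 AAV-TAU members (20.6%), and 33 and 37 of those nuclei were marked as likely doublets by a score of similarity to simulated mixtures of barcodes. Without them 210 and 208 members were left, in which the endothelial markers stood at 145.6 and 137 CPM.

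**Figure D1:**
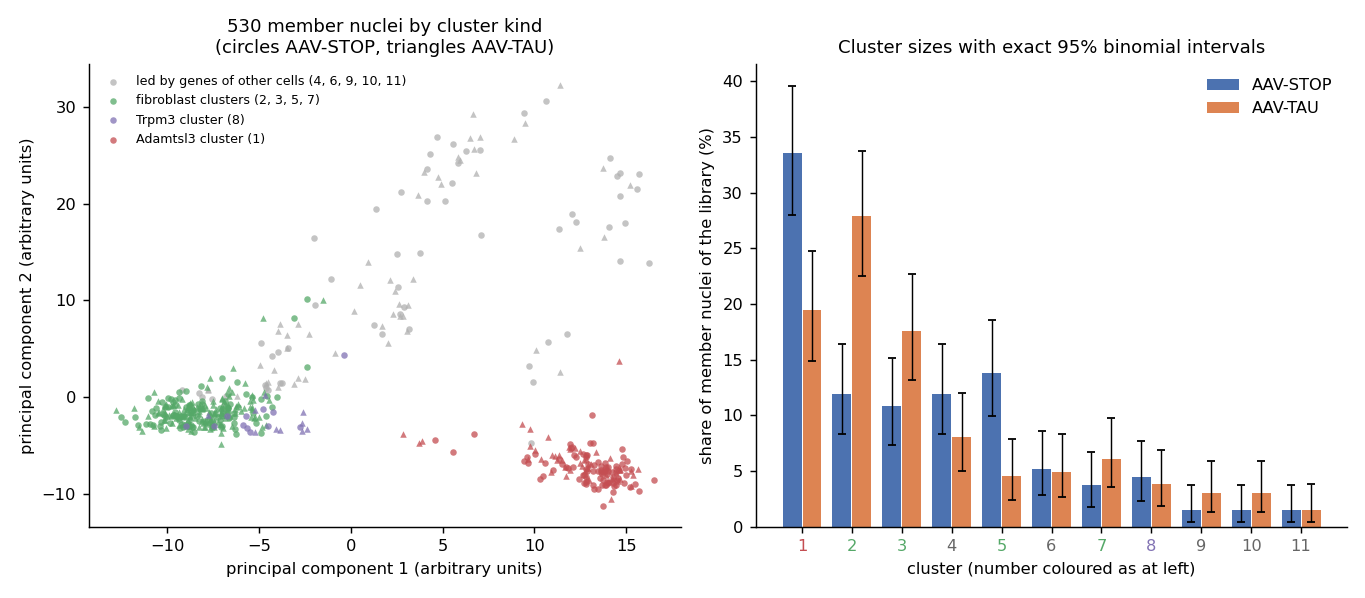
Left: the 530 member nuclei on the first and second principal components (arbitrary units), coloured by cluster kind, circles for AAV-STOP and triangles for AAV-TAU. Right: the share of each library's members in each of the 11 clusters, in percent, as bars from 0 with exact 95% binomial intervals that cover counting error only. The Adamtsl3 cluster lies apart from the fibroblast clusters and holds 33.6% of AAV-STOP and 19.5% of AAV-TAU members.

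Of the 6559 genes compared later between the libraries, 6.08% stood at least 2-fold higher in the Adamtsl3 cluster than in the fibroblast clusters and 11.2% at least 2-fold lower. Bnc2, a gene of the rule, stood at 4664 CPM in the Adamtsl3 cluster and at 116.7 CPM in the fibroblast clusters, while Slc6a20a, another gene of the rule, stood at 31.9 and 2620 CPM. The leading genes of the Adamtsl3 cluster were Adamtsl3, which codes for a secreted ADAMTS-like matrix protein (2431 CPM, against 64.4 CPM in all other members), Prg4, which codes for the lubricant proteoglycan lubricin (573.5 against 14.0 CPM), the carbonic anhydrase gene Car13 (593.1 against 17.8 CPM) and the anion transporter gene Slc26a7 (1314 against 57.4 CPM). Gene models aside, Slc9a2, Tspan11, Card14 and Slc26a2 completed its first 10 genes.

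Of the 7 arachnoid barrier markers, 5 were raised at least 2-fold in the Adamtsl3 cluster over the other members, and together the 7 stood at 2600 CPM against 336 CPM. Slc47a1, which codes for an efflux transporter of organic cations, stood at 1323 CPM in the Adamtsl3 cluster and at 1.54 CPM in the fibroblast clusters. Abcg2, which codes for an efflux pump, stood at 808.8 and 87.5 CPM. Cdh1, the gene of E-cadherin, stood at 166.7 CPM and was at 0 in the 651209 UMIs of the fibroblast clusters, which allows a level of up to 4.61 CPM. All 5 dural fibroblast markers were raised as well, among them Mgp (796.5 against 53.7 CPM) and the transcription factor gene Foxp1 (5002 against 1457 CPM). Markers of both layers were thus raised together, and the cluster keeps the name of its leading gene.

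Several classical fibroblast genes were low in the Adamtsl3 cluster. Dcn stood at 56.4 CPM there and at 371.6 CPM in the fibroblast clusters, Col1a1 at 68.6 and 228.8 CPM, and Igf2 at 14.7 and 251.8 CPM. The gene of the hyaluronan-degrading protein Cemip stood at 7.35 and 1748 CPM, and Slc7a11, the gene of the cystine-glutamate exchanger, at 7.35 and 3145 CPM. Lum was at 0 in the 408016 UMIs of the Adamtsl3 cluster, which allows up to 7.35 CPM. Genes shared by both kinds included Cped1 (1779 and 2164 CPM), Ogn (100.5 and 93.7 CPM) and the forkhead gene Foxd1 (345.6 and 215 CPM). Other genes of the fibroblast list stood higher in the Adamtsl3 cluster: Eya2 (1490 and 526.7 CPM), Fbln1 (213.2 and 127.5 CPM) and Slc47a1, given above. Gpc5, a glypican gene placed among the astrocyte markers, stood at 1806 CPM in the Adamtsl3 cluster and 12.3 CPM in the fibroblast clusters. Other astrocyte markers went both ways, with Slc4a4 at 301.5 and 98.3 CPM, Gja1 at 137.2 and 281.02 CPM and Slc1a2 at 115.2 and 133.6 CPM.

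**Figure D2:**
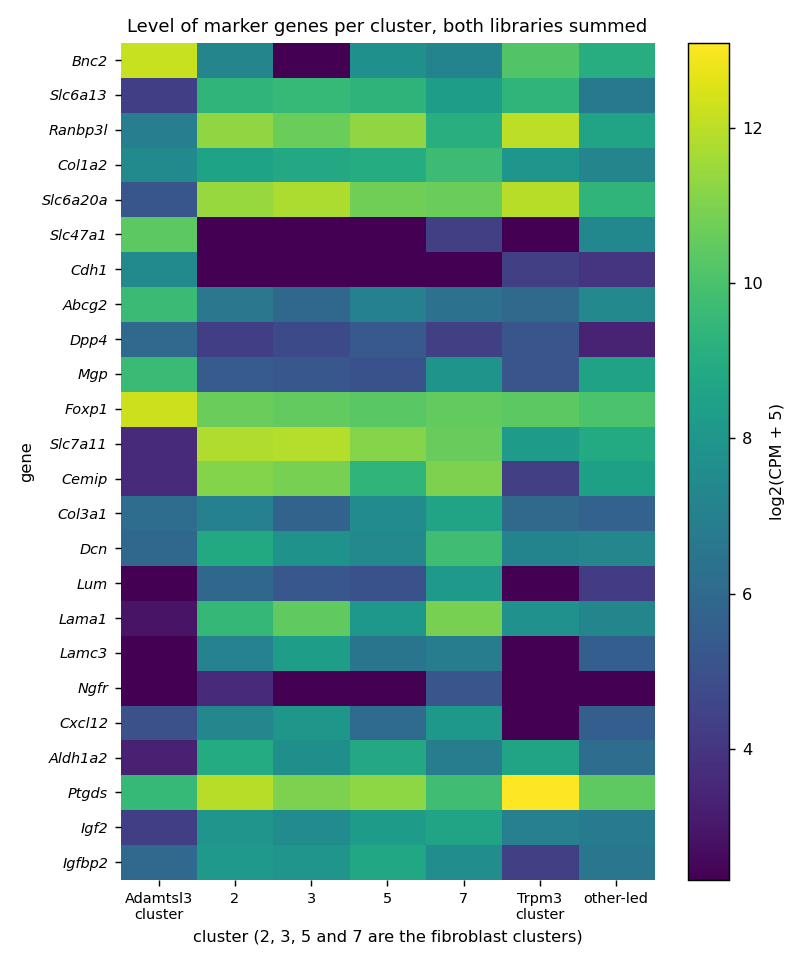
Level of marker genes (rows) in each cluster or group of clusters (columns), both libraries summed, as log2(CPM + 5) by colour. Bnc2, Slc47a1, Cdh1, Mgp and Foxp1 are highest in the Adamtsl3 cluster, where Slc6a20a, Slc7a11, Cemip and Lama1 stand near the floor.

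Among the fibroblast clusters, markers of the pia, of vessel-associated fibroblasts and of the arachnoid were raised to different degrees, in part in the same clusters. Cluster 7 (26 nuclei) raised all 5 pial markers and 4 of 5 perivascular ones, although Ngfr, S100a6 and Mfap2 rested on few UMIs. Lama1, which codes for a laminin chain of the pial basement membrane, stood there at 1869 CPM, Dcn at 872.2 CPM, Col1a2 at 825.4 CPM and Lum at 280.3 CPM. Its leading genes were Samd5, Itih5 and Nupr1. Cluster 3 (75 nuclei) combined a Lama1 level of 1423 CPM with high Lamc3 (312 CPM) and was led by Ccn1, Apcdd1 and Ndnf, with the immediate early gene Egr1 at 437.9 CPM and Ccn2 at 432.5 CPM. Cluster 5 (49 nuclei) raised 5 of the 6 arachnoid fibroblast markers, among them Aebp1 (430.9 CPM) and the retinoic acid synthesis gene Aldh1a2 (445 CPM). Crabp2 (28.3 CPM) and Wnt6 (56.5 CPM) stood at low levels there. Summed, the 6 markers stood at 3503 CPM in cluster 5, below cluster 2 (4723 CPM) and the Trpm3 cluster (9812 CPM). Cluster 5 was led by Cyp26b1, whose product degrades retinoic acid (219 CPM, against 6.43 CPM in the other members), Ankfn1 and Itga9. Cluster 2 (105 nuclei) held similar Aldh1a2 (483.3 CPM) with high Cemip (2181 CPM), and its leading genes included Reln, Coch, Vcam1, Il31ra and Wnt5a.

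The Trpm3 cluster stood at 34837 CPM of Trpm3, a cation channel gene, against 6201 CPM in the other members. It also carried the highest Ptgds level, the gene of prostaglandin D synthase (8732 CPM), with Aebp1 at 663.4 CPM and the organic anion transporter gene Slc22a8 at 709.7 CPM. Slc7a11 stood at 308.6 CPM there, Cemip at 15.4 CPM and Lama1 at 216 CPM. It held 12 AAV-STOP and 10 AAV-TAU nuclei.

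The cluster sizes differed between the libraries. The Adamtsl3 cluster held 90 AAV-STOP members (33.6%, 27.95 to 39.6) and 51 AAV-TAU members (19.5%, 14.9 to 24.8), a ratio of shares of 0.580 with a counting interval of 0.403 to 0.826. Of all nuclei it made up 0.444% (0.357 to 0.546) and 0.260% (0.194 to 0.342). The fibroblast clusters held 108 (40.3%, 34.4 to 46.4) and 147 members (56.1%, 49.9 to 62.2), or 0.533% (0.437 to 0.643) and 0.750% (0.634 to 0.881) of all nuclei. The intervals of the Adamtsl3 cluster do not overlap on either scale, while those of the fibroblast clusters do not overlap as shares of members but overlap as shares of all nuclei. With 2000 or more UMIs asked of each nucleus, the shares of members were 33.8% (28.2 to 39.9) and 19.8% (14.7 to 25.7) for the Adamtsl3 cluster. For the fibroblast clusters they were 39.8% (33.9 to 46.01) and 52.5% (45.7 to 59.3), with overlapping intervals. Median depths were alike in the Adamtsl3 cluster, at 2841 and 2791 UMIs.

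The doublet score separated the libraries inside the Adamtsl3 cluster, and its part in this result was not tested. It marked 1 of 90 AAV-STOP nuclei and 48 of 51 AAV-TAU nuclei. The median score was 49.1% in AAV-STOP, where nuclei above 74.3% were marked, and 67.1% in AAV-TAU, where the limit was 64.2%. Without the marked nuclei a new clustering left 89 AAV-STOP nuclei (38.4%) and 3 AAV-TAU nuclei (1.69%) in the corresponding cluster. Since the marking took out nearly all AAV-TAU nuclei of the cluster, it fixed this direction, and the size of the difference depends on how these nuclei are treated. Without the marked nuclei of all clusters, the log2 ratio of Slc47a1 over members was -4.78 in place of -1.15, and the log2 ratio of Slc38a2 was -2.17 in place of -0.99. Neuron markers stood in the cluster at 2109 and 2412 CPM, with 12483 and 11756 CPM in nuclei that are not members. Microglial markers stood there at 141.4 and 143.5 CPM, endothelial markers at 11.5 and 54.7 CPM and mural markers at 76.4 and 27.3 CPM. Astrocyte markers, with Gpc5 among them, stood at 2625 and 1989 CPM and oligodendrocyte markers at 825.4 and 669.7 CPM. Choroid plexus markers stood at 149 and 218.7 CPM and border macrophage markers at 3.82 and 13.7 CPM. The fibroblast list stood at 6172 and 5658 CPM.

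Nuclei were also counted by marker genes, without clustering. After thinning, 40.3% of AAV-STOP members (34.4 to 46.4) and 22.1% of AAV-TAU members (17.3 to 27.7) held 2 or more UMIs of the 7 arachnoid barrier markers, against 0.7% and 1.1% of neurons. Unthinned, the shares were 51.5% and 33.2%. For the 5 dural markers the thinned shares were 72.8% (67.0 to 78.0) and 64.9% (58.8 to 70.7), against 15.9% and 19.8% of neurons. For the 5 pial markers they were 18.7% (14.2 to 23.8) and 28.2% (22.9 to 34.1), with neurons at 0% and 0.4%, and the pial markers together stood at 431.3 and 642.6 CPM. The 6 arachnoid fibroblast markers were held by 50.4% and 54.2% of members, and the 5 perivascular markers by 29.5% and 35.9%. The intervals do not overlap for the barrier markers, and they overlap for the dural and the pial markers.

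Inside the fibroblast kind the 4 clusters did not move together. Cluster 2 held 32 AAV-STOP members (11.9%, 8.31 to 16.4) and 73 AAV-TAU members (27.9%, 22.5 to 33.7). Cluster 5, the one led by Cyp26b1, held 37 (13.8%, 9.91 to 18.5) and 12 (4.58%, 2.39 to 7.86). These 2 clusters have intervals that do not overlap, in opposite directions. Cluster 3 held 29 (10.8%) and 46 (17.6%), and cluster 7 held 10 (3.73%) and 16 (6.11%), with overlapping intervals. Of these nuclei 1 in all was marked as a doublet. With 2000 or more UMIs asked, the shares of cluster 2 were 12.03% and 25.8%, and those of cluster 5 were 13.9% and 5.53%.

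For the levels of single genes, the UMIs of all members of a library were summed, and 6559 genes with at least 30 UMIs and 20 CPM in the library with the higher level were compared as log2((CPM AAV-TAU + 5)/(CPM AAV-STOP + 5)). The ratio was 1.5-fold or more higher in AAV-TAU for 463 genes (7.06%) and 1.5-fold or more lower for 371 genes (5.66%), and the median log2 ratio of all genes compared was 0.02. With 100 or more UMIs asked of a gene in the higher library, the split turned: genes 1.5-fold or more higher in AAV-TAU numbered 66 and genes 1.5-fold or more lower in AAV-TAU 120. Without nuclei marked as doublets the counts were 488 and 590. In all nuclei that are not members, with far more UMIs, 27 of 7460 genes (0.362%) were higher by this fold and 0% lower, with a median of 0.05. At 30 UMIs counting error alone can pass this fold, so the shares of such small and large pools cannot be set against each other.

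The genes lower in AAV-TAU included many of the Adamtsl3 cluster. Of the 371 lower genes, 134 (36.1%) stood at least 2-fold higher in the Adamtsl3 cluster than in the fibroblast clusters, a pattern shown by 6.08% of all genes compared. Of the 463 higher genes, 107 (23.1%) stood at least 2-fold higher in the fibroblast clusters, a pattern of 11.2% of all genes compared. In the sums over all members, the number of nuclei of a kind and the RNA per nucleus cannot be told apart, so the levels inside each kind are given beside the pooled ones. Within the fibroblast clusters 155 of 2441 genes (6.35%) were higher and 149 (6.1%) lower. With only the clusters led by genes of other cells left out, 386 of 4740 genes (8.14%) were higher and 368 (7.76%) lower. Inside the Adamtsl3 cluster 60 of 1222 genes (4.91%) were higher and 121 (9.9%) lower, with a median log2 ratio of -0.07.

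**Figure D3:**
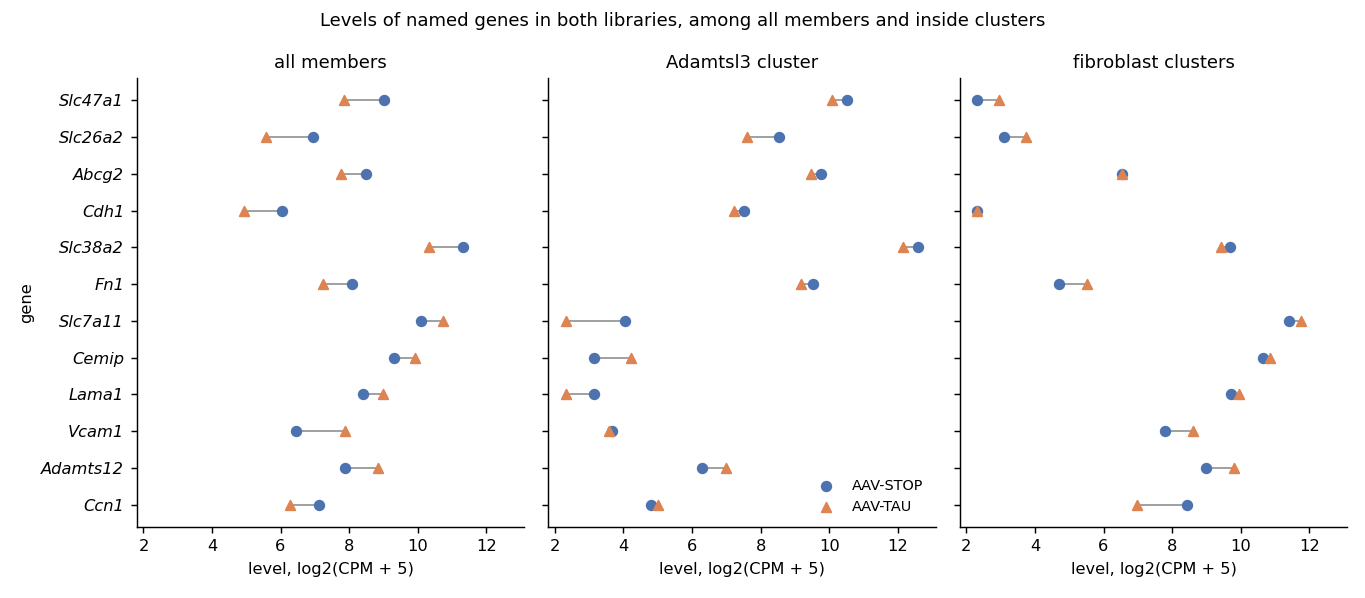
Levels of 12 named genes as log2(CPM + 5) in AAV-STOP (circles) and AAV-TAU (triangles), summed over all members (left), the Adamtsl3 cluster (middle) and the fibroblast clusters (right). Slc47a1 and Slc38a2 are further apart over all members (508.5 and 225.6 CPM, 2536 and 1278 CPM) than inside the Adamtsl3 cluster, while Ccn1 is further apart inside the fibroblast clusters.

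Several of the lowest ratios belonged to transporter and membrane enzyme genes of the Adamtsl3 cluster. Slco4a1, an organic anion transporter gene, stood at 71.5 CPM in AAV-STOP and 19.6 CPM in AAV-TAU (log2 ratio -1.64), and inside the Adamtsl3 cluster at 210.2 and 54.7 CPM (-1.85). Alpl, the gene of tissue-nonspecific alkaline phosphatase, stood at 64.7 and 17.2 CPM (-1.65) over members, with too few UMIs (47 and 10) inside the cluster to be compared there. Slc26a2, a sulfate transporter gene, stood at 119.2 and 42.9 CPM (-1.37), and inside the cluster at 366.9 and 191.3 CPM (-0.92). Over both libraries most UMIs of these genes lay in the cluster, so the values inside it largely repeat the counts that chose the genes. Afap1l1 (-1.51 over members, -1.08 inside the cluster), Slc16a9 (-1.38 and -1.22) and the heparan sulfate sulfotransferase gene Hs3st1 (-1.37 and -0.67) were likewise lower on both scales. The other genes with the 12 lowest ratios were Crispld2, Olfr1033, Chst9, Cyp26b1, Dusp1 and Adarb2, between -1.68 and -1.40. Of these, Adarb2 and Chst9 stood higher in the clusters led by genes of other cells (216.6 and 50.7 CPM) than in the Adamtsl3 or fibroblast clusters.

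Other genes of the Adamtsl3 cluster were lower over all members but close inside the cluster. Adamtsl3 itself stood at 763.8 CPM in AAV-STOP and 493 CPM in AAV-TAU over members, and at 2381 and 2522 CPM inside the cluster (ratio 1.06, 0.929 to 1.21). Foxp2, a forkhead transcription factor gene, stood at 975 and 594.7 CPM over members (-0.71) and at 2362 and 2405 CPM inside. Slc4a10, a bicarbonate transporter gene, stood at 1900 and 1295 CPM over members and at 5266 and 5528 CPM inside. Slc47a1 (ENSMUSG00000010122, chromosome 11, 61343401 to 61378345 in mm10) lay between, with a log2 ratio of -1.15 over members (508.5 and 225.6 CPM) and -0.42 inside the cluster (1456 and 1087 CPM, ratio 0.746, 0.616 to 0.900). Cdh1 stood at 61.3 and 25.8 CPM over members and at 179.6 and 143.5 CPM inside.

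The highest ratios mixed fibroblast genes with genes of other cells. Ly6c1 stood at 11.3 CPM in AAV-STOP and 94.4 CPM in AAV-TAU (log2 ratio 2.60) and Ly6a at 15.9 and 63.8 CPM (1.72). Both rested on few nuclei: the 10 and 77 UMIs of Ly6c1 came from 7 and 4 nuclei. The 14 and 52 UMIs of Ly6a came from 7 and 9 nuclei. Both genes lay almost wholly in the clusters led by genes of other cells (148.5 and 111.8 CPM there). Without those clusters Ly6c1 stood at 1.71 and 1.85 CPM. Slc2a1, the glucose transporter gene of brain endothelium, Gmnc, Vat1l, Lrriq1, Pla2g7 and Dpp10 were likewise higher there than in the Adamtsl3 or fibroblast clusters. Ammecr1 (17.0 and 61.3 CPM), Gnpda2 (10.2 and 38.01 CPM) and Paics (19.3 and 57.6 CPM) were also among the highest ratios. These genes were found at low levels in the Adamtsl3 cluster, the fibroblast clusters and the clusters of other cells. Without the clusters of other cells, the log2 ratio of Paics was 1.33, from 12 and 32 UMIs. Ammecr1 (7 and 25 UMIs) and Gnpda2 (6 and 21 UMIs) then held too few UMIs to be compared.

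Of the 12 highest ratios, that of Vcam1 belonged to a gene that leads a fibroblast cluster. Vcam1 codes for a cell surface protein to which leukocytes bind, and lies on chromosome 3 (ENSMUSG00000027962, 116109949 to 116129688 in mm10). Its level was 82.9 CPM (64.9 to 104.2) in AAV-STOP members and 230.5 CPM (198.8 to 266) in AAV-TAU members, a log2 ratio of 1.42. Inside the fibroblast clusters it stood at 216.6 and 389 CPM (log2 ratio 0.83, ratio 1.80, 1.32 to 2.46), and in nuclei that are not members at 3.54 and 4.44 CPM. The ratio inside the fibroblast clusters was thus smaller than over all members. Of the 73 and 188 UMIs of Vcam1 in members, 62 and 142 lay in these clusters. The values inside them thus largely repeat the counts that chose the gene. Vcam1 is among the leading genes of cluster 2, which held 11.9% of AAV-STOP and 27.9% of AAV-TAU members. The mix of the fibroblast clusters and the level per nucleus therefore cannot be told apart here.

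Matrix genes were mixed in direction. Of 6 fibrillar and fibril-associated collagen genes compared, 0 were higher and 1 lower (7.06% and 5.66% of all genes compared). The lower gene was Col11a1 (91.9 CPM in AAV-STOP and 42.9 CPM in AAV-TAU). The median log2 ratio was -0.32 against 0.02 for all genes compared. Col1a1 stood at 107.8 and 137.3 CPM and Col3a1 at 96.5 and 80.9 CPM. Of 14 basement membrane genes, 12 lay above 0 (3417 of all 6559 genes compared), with a median of 0.19 over members and 0.04 inside the fibroblast clusters. Past the fold, 1 was higher and 0 lower (7.06% and 5.66% of all genes compared). That gene was the laminin chain gene Lamb1, at 35.2 and 76.0 CPM over members (1.01) and 69.9 and 109.6 CPM inside the fibroblast clusters (0.61). Lama1 stood at 333.7 and 502.8 CPM over members (0.58), and inside the fibroblast clusters at 842.1 and 991.8 CPM (0.23).

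Among 22 matrix glycoprotein and proteoglycan genes, 4 were higher and 3 lower (7.06% and 5.66% of all genes compared), with a median of -0.04. Dcn stood at 169.1 CPM in AAV-STOP and 262.4 CPM in AAV-TAU (0.62), and Cemip at 629.9 and 962.6 CPM (0.61). Their log2 ratios inside the fibroblast clusters were 0.42 and 0.20. Col6a2 (74.9 and 31.9 CPM, -1.12), Col6a1 (85.1 and 49.1 CPM, -0.74) and the fibronectin gene Fn1 (264.5 and 147.2 CPM, -0.82) were the lower ones. Fn1 was a gene of the Adamtsl3 cluster, where it stood at 737.5 and 574 CPM (-0.36).

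Matrix processing genes had 2 higher and 3 lower of 16 compared (7.06% and 5.66% of all genes compared), with a median of -0.13. The higher genes, Adamts12 and Adamts9, code for secreted matrix proteases. Adamts12 stood at 232.7 CPM in AAV-STOP and 453.7 CPM in AAV-TAU (0.95), and inside the fibroblast clusters at 506.6 and 882.2 CPM (0.79, ratio 1.74, 1.43 to 2.13). Adamts9 stood at 70.4 and 143.5 CPM (0.98), and inside the fibroblast clusters at 139.8 and 246.6 CPM (0.80). Both were past the fold over members and inside the fibroblast clusters. The nuclei of these clusters are themselves members, so the values inside in part repeat the counts that chose both genes. Adamts12 is a leading gene of clusters 2 and 7, and cluster 2 held 32 of the 108 AAV-STOP and 73 of the 147 AAV-TAU nuclei of the fibroblast clusters, so the mix of these clusters and the level per nucleus cannot be told apart here. Adamts1 stood at 36.3 and 14.7 CPM (-1.07), and the protease inhibitor gene Timp2 at 138.5 and 89.5 CPM (-0.60).

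Transporters were the list with the largest number of lower genes. Of 26 solute carrier and ABC transporter genes compared, 3 were higher and 11 lower (7.06% and 5.66% of all genes compared), with a median of -0.16. In the fibroblast clusters 0 of 15 were higher and 1 lower (6.35% and 6.1% of all genes compared there), with a median of 0.04. Inside the Adamtsl3 cluster 0 of 13 were higher and 2 lower (4.91% and 9.9% of all genes compared there). The median was -0.42, against -0.07 for all genes compared in that cluster. Slc38a2, which codes for a neutral amino acid transporter, was the most abundant of the lower ones, at 2536 CPM in AAV-STOP and 1278 CPM in AAV-TAU (-0.99). It stood at 6210 and 4578 CPM inside the Adamtsl3 cluster (-0.44, ratio 0.737, 0.673 to 0.807) and at 828.1 and 687.7 CPM in the fibroblast clusters (-0.27). Abcg2 stood at 353 and 212.1 CPM over members (-0.72) and at 867.5 and 703.9 CPM in the Adamtsl3 cluster (-0.30). The higher genes were Slc7a11 (1096 and 1692 CPM, 0.62), the glutamate transporter gene Slc1a3 (556.1 and 878 CPM, 0.65) and Abca8a (46.5 and 93.2 CPM, 0.93). Their log2 ratios inside the fibroblast clusters were 0.36, 0.40 and 0.39, so all 3 stood under the fold there.

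The genes of retinoic acid handling went both ways, with a median of 0.06. Of 7 compared, 0 were higher and 1 lower (7.06% and 5.66% of all genes compared). Aldh1a2 stood at 141.9 CPM in AAV-STOP and 213.4 CPM in AAV-TAU (0.57), and Cyp1b1 at 28.4 and 44.1 CPM (0.56). The lower gene was Cyp26b1, at 37.5 and 9.81 CPM over members (-1.52), from 33 and 8 UMIs, and it led the cluster with the smaller AAV-TAU share. The retinoic acid receptor gene Rarb stood at 232.7 and 160.6 CPM (-0.52), and inside the fibroblast clusters at 227.1 and 139.7 CPM (-0.68).

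Among growth factor genes, of 8 genes of the insulin-like growth factor system 0 were higher and 1 lower (7.06% and 5.66% of all genes compared), with a median of 0.06. Igf2 stood at 135.1 and 144.7 CPM, and the lower gene, Igfbp5, at 161.2 and 95.7 CPM over members and 382.1 and 280.2 CPM in the Adamtsl3 cluster. Of 20 genes of TGF-beta and BMP signalling 2 were higher and 2 lower (7.06% and 5.66% of all genes compared). Their median was -0.10. The ligand gene Bmp7 was among the higher ones (60.2 and 96.9 CPM, 0.64, and 0.62 inside the fibroblast clusters). The receptor gene Tgfbr1 stood at 231.5 and 152.1 CPM (-0.59), against -0.49 inside the fibroblast clusters.

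Of 14 junction and adhesion genes 0 were higher and 5 lower (7.06% and 5.66% of all genes compared), with a median of -0.06. The lower genes were Cdh1, Cdh11 (225.9 CPM in AAV-STOP and 130 CPM in AAV-TAU, -0.77), Itgbl1 (287.2 and 171.7 CPM, -0.73), the gap junction gene Gjb2 (53.3 and 30.7 CPM, -0.71) and Itga8 (76.0 and 45.4 CPM, -0.69). Cdh11 and Itgbl1 were lower inside the fibroblast clusters too, by -0.69 and -0.92, while Itgbl1 stood at 401.3 and 403.2 CPM inside the Adamtsl3 cluster. Of 17 meningeal transcription factor genes 0 were higher and 1, Foxp2, was lower (7.06% and 5.66% of all genes compared). Their median was -0.11. Inside the fibroblast clusters 2 of 15 were lower (6.1% of all genes compared there): Foxp2 (345.9 and 200 CPM) and Nr2f2 (398.3 and 197.3 CPM).

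Of 9 markers of fibroblast activation compared, 0 were past the fold higher and 3 lower (7.06% and 5.66% of all genes compared), with a median of -0.08. Without the clusters led by genes of other cells, 0 of 6 were higher and 4 lower (8.14% and 7.76% of all genes compared there). The median was then -0.78. Inside the fibroblast clusters only 2 genes were compared, with a median of -0.95. Ccn1, a matricellular gene that responds to growth factors and stretch, stood at 135.1 CPM in AAV-STOP and 72.4 CPM in AAV-TAU (-0.86). Inside the fibroblast clusters it stood at 342.4 and 120.5 CPM (-1.47, ratio 0.352, 0.241 to 0.507). Ccn1 is a leading gene of cluster 3, which held 10.8% of AAV-STOP and 17.6% of AAV-TAU members. The related gene Ccn2 stood at 251.6 and 186.3 CPM inside the fibroblast clusters. Spp1, the osteopontin gene, stood at 44.3 and 25.8 CPM over members, and the smooth muscle actin gene Acta2, found mainly in cluster 6, at 132.8 and 150.8 CPM.

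Immune genes stood at low levels. Of 9 cytokine, chemokine and signalling genes compared 1 (Vcam1) was higher and 0 lower (7.06% and 5.66% of all genes compared). Above 0 lay 8 of them (3417 of all 6559 genes compared), and their median was 0.38. Cxcl12 stood at 73.8 CPM in AAV-STOP and 100.6 CPM in AAV-TAU, and at 167.7 and 175.3 CPM inside the fibroblast clusters, where the median of 5 genes was 0.06. The macrophage growth factor gene Il34 stood at 120.3 and 125.1 CPM. Of 4 complement genes 1 was higher (Clu, 65.8 and 107.9 CPM) and 0 lower (7.06% and 5.66% of all genes compared). Of 6 genes of the interferon response and MHC class I, 1 was higher (Ifih1, 26.1 and 51.5 CPM) and 0 lower. The shares of all genes compared are the same 7.06% and 5.66%, and the median was 0.06 for both lists.

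Heat shock genes were the list with the highest median. Of 11 compared 5 were higher and 0 lower (7.06% and 5.66% of all genes compared), with a median log2 ratio of 0.58. Hsp90aa1, the gene of an inducible cytosolic chaperone, was at 225.9 CPM (195.6 to 259.5) in AAV-STOP members and 448.8 CPM (404 to 497.2) in AAV-TAU members, a log2 ratio of 0.98. It stood at 251.6 and 498.6 CPM inside the fibroblast clusters (0.97, ratio 1.98, 1.50 to 2.64) and at 233.1 and 601.3 CPM inside the Adamtsl3 cluster (1.35, ratio 2.58, 1.84 to 3.64). The difference was thus present in both kinds. Hspa8 stood at 359.8 and 561.6 CPM (0.64) and the mitochondrial chaperone gene Hspd1 at 65.8 and 118.9 CPM (0.81). The list's median was 0.56 inside the fibroblast clusters and 0.53 inside the Adamtsl3 cluster. It was also above 0 outside the members: in all other nuclei the median was 0.43, with 12 of 12 genes above 0 and Hsp90aa1 at 162.9 and 262.5 CPM (0.67). Over all genes compared there the median was 0.05, and 5135 of 7460 lay above 0. Whether members differ from other nuclei in this was not tested.

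Nuclear genes of the respiratory chain had the next highest median. Of 29 compared 11 were higher and 0 lower (7.06% and 5.66% of all genes compared), and the median was 0.45. Above 0 lay 25 of the 29 (3417 of all 6559 genes compared). Cox4i1, the gene of a cytochrome c oxidase subunit, stood at 110.1 CPM in AAV-STOP and 197.4 CPM in AAV-TAU (0.81), and Uqcr11, of complex III, at 32.9 and 76.0 CPM (1.10). In all other nuclei 29 of 29 lay above 0 (5135 of all 7460 genes compared there) with a median of 0.46. A median of like size thus stood in the rest of the libraries. Among fibroblast clusters 4 of 10 were higher and 1 lower (6.35% and 6.1% of all genes compared there), with a median of 0.36. The lower one was the complex II gene Sdha (171.2 and 101.4 CPM).

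**Figure D4:**
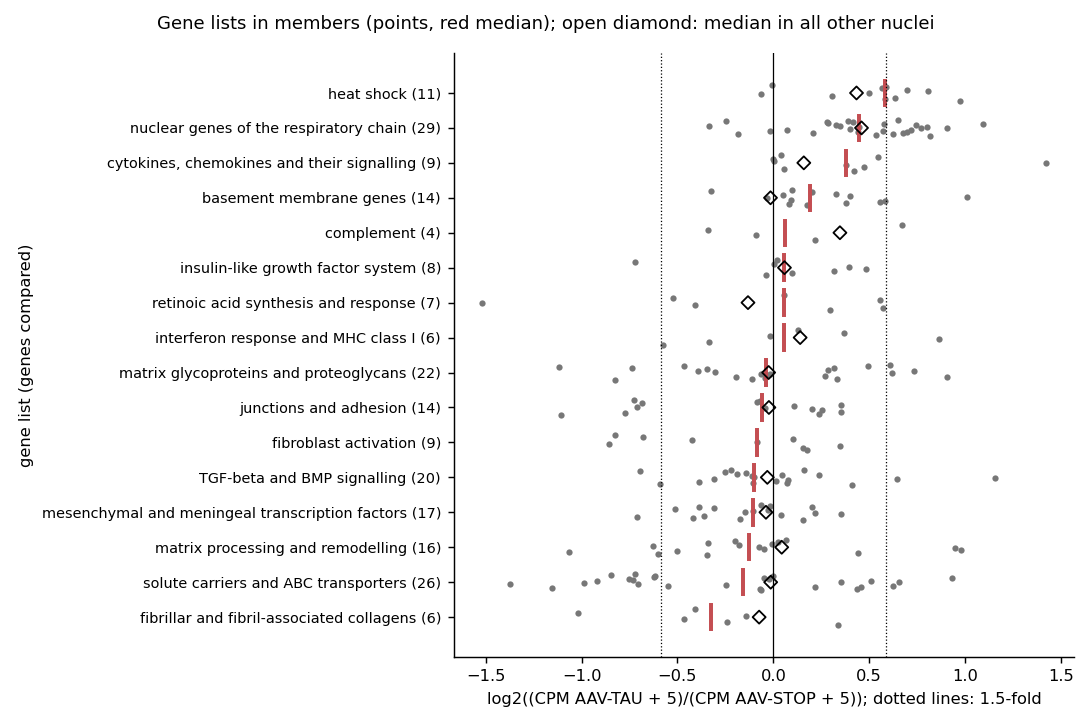
Log2 ratios of AAV-TAU over AAV-STOP for the genes of 16 lists in members (points; number of genes compared in brackets), with the list's median in members (red bar) and in all other nuclei (open diamond); dotted lines mark 1.5-fold. Heat shock and respiratory chain genes lie to the right in both (medians of 0.58 and 0.45 in members, 0.43 and 0.46 in other nuclei), and most transporter genes past the fold lie to the left.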

How the data were processed

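The authors deposited matrices of raw counts (UMIs per gene and filtered barcode, whole numbers, 32285 genes), made with Cell Ranger 8.0.1 on mm10 per the file headers; the submitters' processing notes name Cell Ranger 4.0 and Seurat 4.4.0. The gene list holds 0 human MAPT rows, so the transgene was not followed and the vector labels could not be checked. Members were chosen from raw counts, and no barcode was removed. Analysis ran in Python 3.11.15 with leidenalg 0.10.2 and igraph 0.11.9 for clustering, scipy 1.17.1 for intervals, numpy 2.4.6 and pandas 2.3.3 for sums, and matplotlib 3.10.9 for plots.

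The rule, the gene lists and the cell markers were chosen with earlier results of these data known. Members were clustered jointly (2000 variable genes, 20 principal components, 15 neighbours, leiden resolution 1). A cluster was counted as led by genes of other cells where such a marker set was raised by a log2 ratio of 1.5 or more at 1000 CPM or more, a limit set after seeing the clusters. Doublets were scored per library against simulated sums of barcodes and the highest 15% marked, but kept. Inside clusters, genes with 60 or more UMIs over both libraries were compared. With 1 library per group no p-value was computed; intervals are exact 95% Poisson, Clopper-Pearson or conditional binomial. At 30 UMIs such an interval is wide. The comparison was tested on simulated counts.

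Genes were named by a rule of size: the 12 highest and 12 lowest ratios (without gene models, mitochondrial, ribosomal, haemoglobin, Xist, Tsix and Y-linked genes and markers of other cells), all rule and fibroblast markers, up to 4 genes per list and 10 per cluster. Other genes, such as Slc4a10, Nr2f2, Sdha and Rarb, were chosen after their values were seen. 528 of 528 named identifiers matched GENCODE vM21.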

Additional observations from a re-analysis of the deposited data

How the results depend on the processing

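Each choice was changed alone. The share of members in AAV-TAU over AAV-STOP (log2 0.02) stayed within its counting interval under 7 alternatives and was -0.34 without nuclei marked as doublets (232 and 177 members). The counts of genes past 1.5-fold, 463 higher and 371 lower, were 217 and 194 with a pseudocount of 20 CPM, 66 and 120 with 100 or more UMIs asked, 1779 and 1250 with no filter, 155 and 149 in the fibroblast clusters alone, and 60 and 121 in the Adamtsl3 cluster alone; without marked doublets 590 were lower. At 100 UMIs the split thus turned from more higher to more lower genes. The 11 clusters were 18 at resolution 2. Signs turned without marked doublets for Ly6c1 (-1.09), Ly6a (-0.70), Gmnc (-0.66), Chst9 (0.19) and Adarb2 (0.12). They turned with no UMI of Rbfox3, Mog, Mag and Inpp5d for Ly6c1 (-0.92), Ly6a (-0.94), Dpp10 (-0.98) and Fbln5 (-0.14). Without clusters of other cells they turned for Gmnc (-0.42), Dpp10 (-0.049) and Bmpr1b (-0.81). Gmnc (1 and 0 UMIs) and Dpp10 (18 and 16 UMIs) were there below the limit of 30 UMIs. In the Adamtsl3 cluster alone signs turned for Adamtsl3 (0.083), Tgfbr1 (0.14), Itgbl1 (0.0068) and Foxp2 (0.026). The causes were not tested. Of the list medians, 233 values stayed within their interval and 6 moved, 4 of them for fibroblast activation, down to -1.14 without marked doublets. The alternatives by cluster and the 60-UMI limit were chosen after seeing the data. No paired analysis was possible because each group is 1 library. Depth limits genes below about 30 UMIs and clusters of under 50 nuclei.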
